A study of Mus musculus with 12 samples.

Results

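Messenger RNA of 10 genes that build the meiotic chromosome was followed in germ cells of Ezh2 conditional knockout (CKO) and control (Ctrl) mouse embryos of both sexes. The genes encode the synaptonemal complex (Sycp1, Sycp2, Sycp3, Syce1, Syce2, Syce3 and Tex12) and the meiosis-specific cohesin subunits (Rec8, Smc1b and Stag3). They were chosen by name as the structural parts of these complexes, with earlier results of these data known. All 10 were found among the 37991 genes of the count table and among the 16708 that passed a filter on low counts. Females comprised 2 CKO and 3 Ctrl embryos, and males 3 CKO and 4 Ctrl embryos. Every embryo was at E13.5 (days of embryonic development) on a C57BL/6 background, and its primordial germ cells were sorted and sequenced as a library of their own. The labels used here do not give the Cre driver, the exons removed, the genotype of the controls or the litters. Ezh2 encodes the catalytic subunit of PRC2, the Polycomb complex that puts the repressive mark H3K27me3 on histones.

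The synaptonemal complex is the zipper-like protein structure that joins homologous chromosomes in meiotic prophase. Cohesin rings made of REC8, SMC1B and STAG3 hold sister chromatids together and form the chromosome axis on which SYCP2 and SYCP3 assemble. SYCP1 filaments then bridge the axes of the homologs, and SYCE1, SYCE2, SYCE3 and TEX12 form the central element between them. At the stage sampled, female mouse germ cells in the fetal ovary are starting meiosis, while male germ cells in the fetal testis stop dividing and enter meiosis only after birth.

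In female germ cells, Sycp2 and Sycp3, the axis proteins of the complex, rose in CKO embryos. Of all genes tested, 3.01% were called higher there. Both calls were lost when female CKO 1, female Ctrl 1 or female Ctrl 3 was left out. Leaving out either female CKO library leaves 1 embryo in that group. No other member of the complex passed the test in either sex alone. Syce3 rose as well when the CKO effect was averaged over the sexes, where 6.85% of all genes were called higher. That call was lost without female CKO 1. Syce2, which encodes a central element protein, and Stag3 had lower means in CKO than in Ctrl embryos of both sexes, and neither passed the test. Female germ cells held more of 9 of the 10 transcripts than male germ cells among Ctrl embryos and of all 10 among CKO embryos. The gap was widest for Rec8. Of all genes tested, 20.1% were called higher in females among Ctrl embryos and 19.4% among CKO embryos. The member counts fell to 5 without female Ctrl 2 and to 5 without female CKO 1.

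The 10 genes lie on 9 chromosomes. Among the lateral element genes, Sycp2 (ENSMUSG00000060445) is on chromosome 2 and Sycp3 (ENSMUSG00000020059) on chromosome 10. The transverse filament gene Sycp1 (ENSMUSG00000027855) is on chromosome 3. The central element genes Syce1 (ENSMUSG00000025480), Syce2 (ENSMUSG00000003824), Syce3 (ENSMUSG00000078938) and Tex12 (ENSMUSG00000032065) are on chromosomes 7, 8, 15 and 9. The cohesin genes Rec8 (ENSMUSG00000002324), Smc1b (ENSMUSG00000022432) and Stag3 (ENSMUSG00000036928) are on chromosomes 14, 15 and 5. Their exons span from 553 bases for Syce3 to 5967 bases for Sycp2 in the GENCODE M21 annotation. The library chemistry did not mark the strand, which touches Sycp3, because 660 bases (52.2%) of its exons overlap exons of Chpt1 on the opposite strand. Reads there cannot be assigned to one of these genes. Chpt1, chosen for this check after values had been seen, had 58.7 and 61.5 CPM (counts scaled to library size) in female CKO against 57.2, 64.3 and 72 CPM in female Ctrl libraries, and it did not pass the test (adjusted p = 0.698, edgeR).

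Several of these genes are known in mouse cells as targets of a repressor complex that holds germline genes silent before meiosis and binds through E2F6 and through MGA with MAX. The promoters of 4 members are shown because they span the range of responses, with Sycp2, Sycp3 and Syce3 as the members that rose in a CKO comparison and Stag3 as one whose mean was lower in CKO embryos. Each runs from 250 bases before to 50 bases after the first start listed in RefSeq (build GRCm38.p6), written 5′ to 3′ on the strand of the gene. The Sycp2 promoter is at chr2:178407609-178407908 on the minus strand, that of Sycp3 at chr10:88459337-88459636 on the plus strand, that of Syce3 at chr15:89410454-89410753 on the minus strand and that of Stag3 at chr5:138280259-138280558 on the plus strand. Capitals mark the E-box CACGTG, which MAX and MGA bind, and the site TCCCGC or its reverse complement GCGGGA, which E2F6 binds.
Sycp2: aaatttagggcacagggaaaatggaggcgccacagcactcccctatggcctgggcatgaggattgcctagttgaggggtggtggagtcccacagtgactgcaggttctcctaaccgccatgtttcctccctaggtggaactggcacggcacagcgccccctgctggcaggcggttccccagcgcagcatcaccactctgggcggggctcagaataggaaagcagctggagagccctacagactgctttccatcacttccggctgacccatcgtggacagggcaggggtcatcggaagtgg
Sycp3: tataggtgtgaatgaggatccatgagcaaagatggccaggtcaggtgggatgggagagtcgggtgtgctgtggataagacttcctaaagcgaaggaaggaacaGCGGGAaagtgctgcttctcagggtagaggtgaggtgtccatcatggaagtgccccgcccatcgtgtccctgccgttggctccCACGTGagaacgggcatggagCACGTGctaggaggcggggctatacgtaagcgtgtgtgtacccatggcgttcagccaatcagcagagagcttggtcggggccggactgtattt
Syce3: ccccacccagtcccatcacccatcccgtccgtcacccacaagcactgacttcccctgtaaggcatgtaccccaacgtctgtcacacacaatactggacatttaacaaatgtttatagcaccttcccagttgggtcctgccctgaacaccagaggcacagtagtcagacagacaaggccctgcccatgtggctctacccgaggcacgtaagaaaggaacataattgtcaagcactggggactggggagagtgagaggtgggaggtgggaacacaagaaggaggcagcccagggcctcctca
Stag3: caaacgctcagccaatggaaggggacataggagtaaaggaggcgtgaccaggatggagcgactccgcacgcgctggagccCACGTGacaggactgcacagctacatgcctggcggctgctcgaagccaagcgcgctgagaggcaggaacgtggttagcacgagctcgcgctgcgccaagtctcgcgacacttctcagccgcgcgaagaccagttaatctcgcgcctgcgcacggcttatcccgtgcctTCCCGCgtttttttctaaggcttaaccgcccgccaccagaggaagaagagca
The Sycp3 promoter held 2 E-boxes, starting at positions -64 and -43 from the start of transcription, and an E2F6 site at -147. That of Stag3 held an E-box at -170 and an E2F6 site at -2. None of these letters occurred in the Sycp2 or Syce3 windows. Across the 10 members the E-box was found in 4 promoters (Sycp1, Sycp3, Tex12 and Stag3), against 7.24% of the promoters of 27025 genes. The E2F6 site was found in 7 (Sycp1, Sycp3, Syce2, Tex12, Rec8, Smc1b and Stag3), against 20.0% of all promoters. Among the 11876 promoters with at least 10 CpG dinucleotides the shares were 11.1% for the E-box and 40.3% for the E2F6 site, and 9 of the 10 members belong to that class. The letters CCTCAG, the core of a motif described for the meiotic activator STRA8, were found on either strand in 4 promoters (Sycp1, Syce1, Tex12 and Smc1b), against 26.6% of all. No matches of these motifs overlapped each other in the 10 windows. Of the 3 members that rose in a CKO comparison, Sycp3 held an E-box and an E2F6 site, and Sycp2 and Syce3 held none of the motifs.

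The targeted gene was lower in the CKO libraries. Ezh2 had 84.5 and 107 CPM in female CKO against 150, 145 and 166 CPM in female Ctrl libraries, and 85.8, 82.4 and 85 CPM in male CKO against 96.6, 144, 129 and 119 CPM in male Ctrl libraries. Its groups did not overlap in either sex. The log2 fold change was -0.68 in females (SE 0.15, adjusted p = 0.02, edgeR quasi-likelihood test with Benjamini-Hochberg adjustment over all genes tested) and -0.53 in males (SE 0.13, adjusted p = 0.0527). Among females it did not pass without CKO 1 (adjusted p = 0.165) or without Ctrl 3 (0.0779). Which exons the counts cover relative to the deletion is not known here, so the remaining reads do not measure the share of unrecombined cells.

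Total counts ran from 26180685 to 35299206 per library. Germ cell markers summed to between 5808 and 5872 CPM in female CKO and 6143 and 6352 CPM in female Ctrl libraries. In males the sums were between 5848 and 6331 CPM in CKO and 5781 and 6402 CPM in Ctrl libraries. The female CKO sums lay below the female Ctrl sums, but not through Dazl, a large part of the sum. Dazl had means of 3172 CPM in female CKO and 3089 CPM in female Ctrl embryos, and its groups overlapped. The sum can move through single markers, so it does not measure the share of germ cells. Markers of other gonadal cells were low but not equal between groups. Markers of stroma and mesonephros summed to 6.44 and 13.8 CPM in female CKO against 2.21 to 3.05 CPM in female Ctrl libraries, and endothelial markers to 0.907 and 1.81 CPM against 0.338 to 0.377 CPM. Sertoli markers summed to 2.14 and 2.34 CPM in female CKO against 0.892 to 1 CPM in female Ctrl libraries. Red blood cell markers reached 13.9 CPM in female CKO 1 and 1.05 CPM in female CKO 2, against 0.0921 to 1.85 CPM in female Ctrl libraries. In males, Sertoli markers summed to between 5.03 and 18 CPM in CKO and between 5.75 and 21.9 CPM in Ctrl libraries, and endothelial markers to between 1.31 and 2.29 CPM in CKO and between 0.536 and 0.818 CPM in Ctrl libraries. Pregranulosa, Leydig and macrophage markers overlapped between CKO and Ctrl in both sexes. No marker gene of any list was at 0 in all 12 libraries, and the part of these cells in the results was not tested. In bulk libraries, a change in the share of cells that express a gene cannot be told apart from a change in the amount of RNA per cell.

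**Figure D1:**
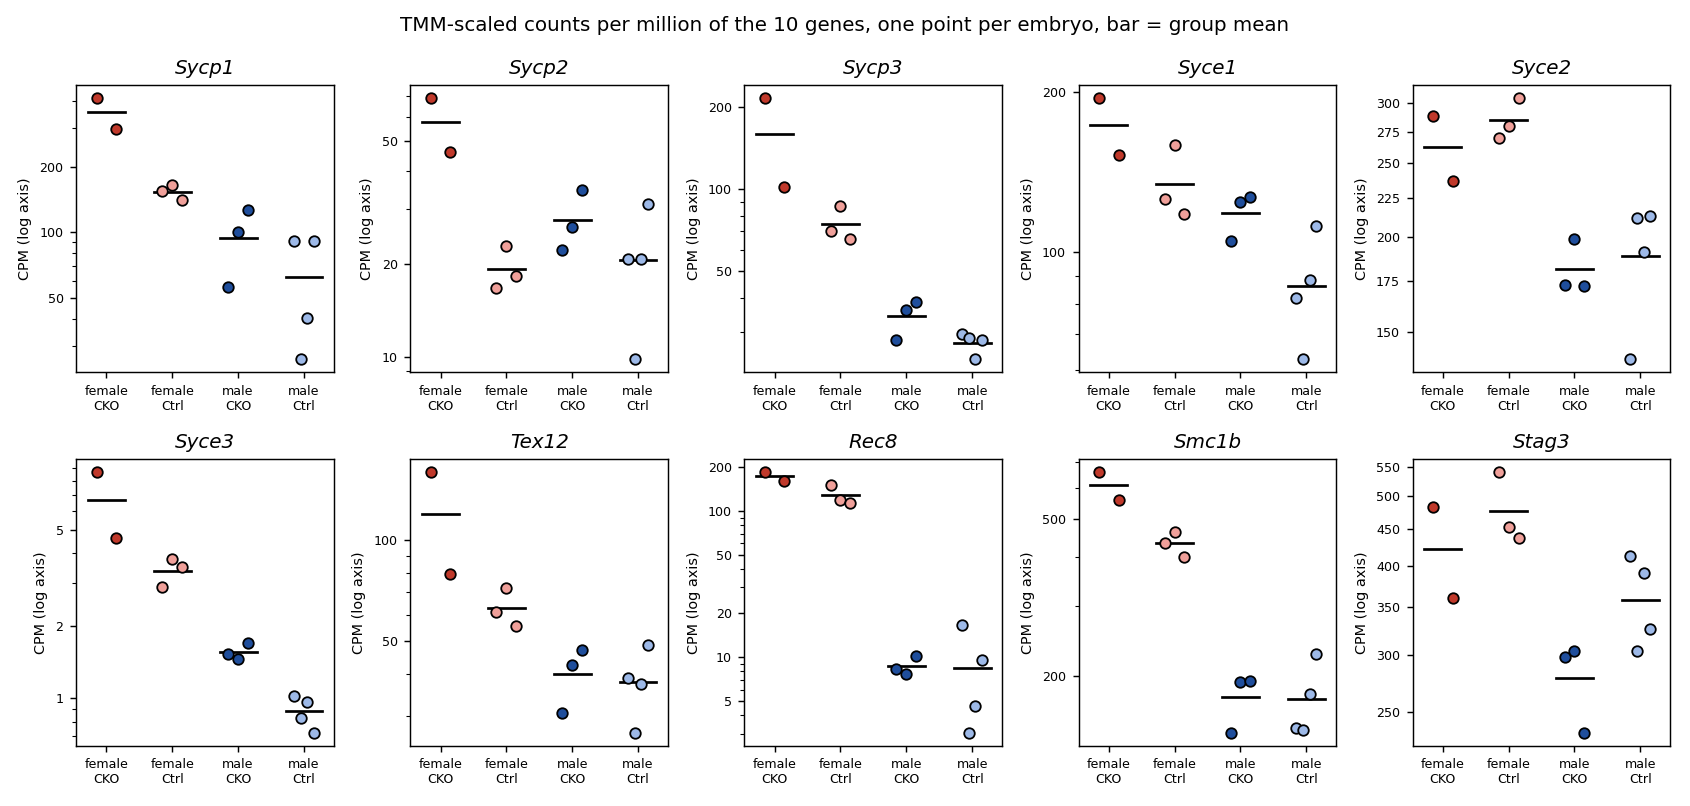
Each panel shows 1 gene, with TMM-scaled CPM on a log axis and 1 point per embryo for females (2 CKO, 3 Ctrl) and males (3 CKO, 4 Ctrl); bars are group means. Both female CKO points lie above all female Ctrl points for 7 genes, where 22.2% of all genes tested separated so. The female points lie above the male points of the same genotype for each gene except Sycp2 among Ctrl embryos. Of all genes tested, 22.3% separated with females higher among Ctrl and 33.4% among CKO embryos.

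Sycp2, the partner of SYCP3 in the lateral element, had the largest fitted CKO effect of the 10 genes in females. It was counted at 69 and 46.1 CPM in female CKO against 16.7, 22.9 and 18.3 CPM in female Ctrl libraries. Both CKO libraries exceeded every Ctrl library, and the lower CKO value was still above the highest Ctrl value. The log2 fold change was 1.58 (SE 0.34, 95% interval 0.83 to 2.32, adjusted p = 0.0182, edgeR), a 2.98-fold higher level. In males the values were 22.2, 26.4 and 34.6 CPM in CKO against 20.7, 9.82, 20.8 and 31.2 CPM in Ctrl libraries. The male groups overlapped, and the log2 fold change of 0.43 (95% interval -0.20 to 1.05) did not pass the test (adjusted p = 0.508).

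Sycp3 encodes the main structural protein of the lateral element. Its level was 216 and 102 CPM in female CKO against 70.1, 87 and 65.5 CPM in female Ctrl libraries. The groups did not overlap, but CKO 1 stood 2.11-fold above CKO 2, which lay closer to the Ctrl libraries than to CKO 1. The log2 fold change was 1.10 (SE 0.24, 95% interval 0.58 to 1.62, adjusted p = 0.0185, edgeR), a 2.14-fold higher level. Male CKO libraries had 27.9, 36 and 38.6 CPM against 29.3, 28.3, 23.8 and 28 CPM in male Ctrl libraries. These groups overlapped through CKO 1, and the log2 fold change of 0.32 (95% interval -0.12 to 0.77) did not pass the test (adjusted p = 0.473).

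The 2 of 10 members called higher in female CKO embryos stood against 3.01% of the 16708 genes called higher and 4.16% called lower in that comparison. No member was called lower. The median log2 fold change of the 10 members was 0.71, against 0.00 over all genes tested. Groups did not overlap, with CKO higher, for 7 members (Sycp1, Sycp2, Sycp3, Syce3, Tex12, Rec8 and Smc1b), where 22.2% of all genes tested separated in that way. The calls rested on few libraries. Both were lost without Ctrl 1 (adjusted p = 0.0602 for Sycp2 and 0.0551 for Sycp3, edgeR) or without Ctrl 3 (0.0674 and 0.0728). Both were also lost without CKO 1, but leaving out CKO 1 or CKO 2 leaves 1 female CKO embryo. Sycp2 also missed the threshold with no filter on low counts (0.0519). Without CKO 1 the Sycp3 log2 fold change was 0.46 and that of Sycp2 1.26.

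**Figure D2:**
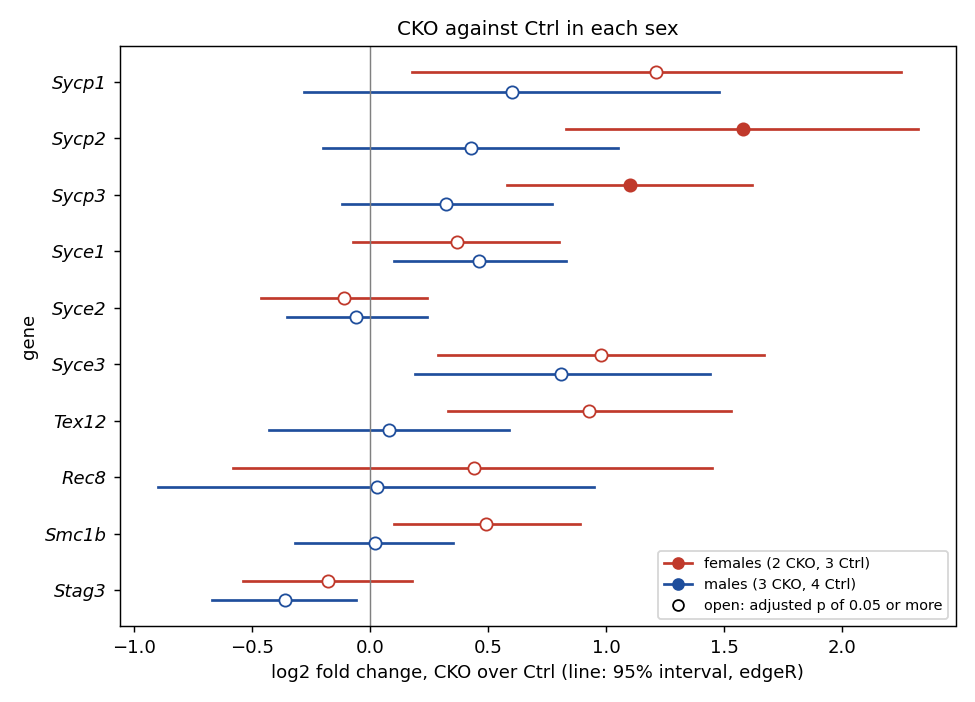
Points are log2 fold changes of CKO over Ctrl from the edgeR fit of all 12 libraries, with 95% intervals as lines, for females (2 CKO, 3 Ctrl) and males (3 CKO, 4 Ctrl); filled points have an adjusted p under 0.05. Sycp2 (1.58) and Sycp3 (1.10) in females are the only filled points.

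Sycp1, the transverse filament protein that spans the gap between the axes, had 413 and 297 CPM in female CKO against 154, 164 and 141 CPM in female Ctrl libraries. The female groups were well apart, with means of 355 ± 81.7 CPM (SD, n = 2) in CKO and 153 ± 11.7 CPM (SD, n = 3) in Ctrl embryos. In males the libraries spread widely within each group, at 56.3, 100 and 126 CPM in CKO against 91.5, 26.2, 40.2 and 91.1 CPM in Ctrl libraries. The highest male Ctrl library was 3.49-fold above the lowest, and the male groups overlapped. The female log2 fold change of 1.21 had a standard error of 0.47 and a 95% interval of 0.18 to 2.25, and it did not pass the test when the spread was estimated over all 12 libraries (adjusted p = 0.148, edgeR). With the female libraries alone, the log2 fold change was 1.24 with an adjusted p of 0.00255 (edgeR). That fit tested 15805 genes and called 1705, against 1198 with all 12 libraries. The cause of the difference for Sycp1 was not tested. The male log2 fold change was 0.60 (95% interval -0.28 to 1.48, adjusted p = 0.502).

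Of the central element genes, Syce3 and Tex12 had higher values in both female CKO libraries than in any female Ctrl library. Syce3, a small protein needed to load the other central element proteins, was the least counted member, at 8.72 and 4.63 CPM in female CKO against 2.89, 3.78 and 3.5 CPM in female Ctrl libraries. It was also the member whose male CKO libraries, at 1.52, 1.46 and 1.69 CPM, all lay above the male Ctrl libraries, at 1.02, 0.825, 0.96 and 0.719 CPM. The log2 fold changes were 0.98 (95% interval 0.29 to 1.67) in females and 0.81 (0.19 to 1.44) in males, and neither passed the test on its own (adjusted p = 0.081 and 0.176, edgeR). Tex12, the partner of SYCE2 in the fibres of the central element, had 160 and 79.5 CPM in female CKO against 61.1, 71.9 and 55.7 CPM in female Ctrl libraries. Its female CKO libraries differed 2.01-fold from each other, as those of Sycp3 did. The female log2 fold change of 0.93 (95% interval 0.33 to 1.53) missed the threshold (adjusted p = 0.0595, edgeR). It was 1.36 without CKO 2 and 0.34 without CKO 1, in fits that each left 1 female CKO embryo. Male Tex12 values were 30.6, 42.4 and 47 CPM in CKO against 38.8, 26.7, 37.2 and 48.8 CPM in Ctrl libraries, which overlapped.

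Syce1, a further protein of the central element, had 195 and 152 CPM in female CKO against 126, 159 and 118 CPM in female Ctrl libraries. Its male values were 105, 124 and 127 CPM in CKO against 82.1, 62.9, 88.5 and 112 CPM in Ctrl libraries. Groups overlapped by 1 Ctrl library in each sex, and the log2 fold changes were 0.37 in females (adjusted p = 0.292, edgeR) and 0.46 in males (adjusted p = 0.188). Syce2 showed no detectable CKO difference. It had 289 and 237 CPM in female CKO against 270, 280 and 305 CPM in female Ctrl libraries, and 173, 199 and 172 CPM in male CKO against 138, 212, 191 and 213 CPM in male Ctrl libraries. The 95% interval of its CKO effect ran from -0.46 to 0.24 in females and from -0.35 to 0.24 in males, so that a log2 change of the size of the Sycp2 or Sycp3 change in females lies outside it.

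The cohesin subunits had smaller fitted log2 fold changes than Sycp2 and Sycp3 in the same embryos, and the differences between genes were not tested. Smc1b, the meiotic form of the SMC1 arm of the ring, had 661 and 560 CPM in female CKO against 436, 464 and 402 CPM in female Ctrl libraries. Its female groups did not overlap, and the log2 fold change of 0.49 (95% interval 0.10 to 0.89) did not pass the test (adjusted p = 0.121, edgeR). Rec8, the meiotic kleisin that closes the ring, had 185 and 160 CPM in female CKO against 150, 118 and 114 CPM in female Ctrl libraries. Although these groups did not overlap either, the interval of its log2 fold change was wide, from -0.58 to 1.45 around 0.44 (adjusted p = 0.618). Stag3, the meiotic STAG subunit that binds the kleisin, had 483 and 361 CPM in female CKO against 541, 453 and 438 CPM in female Ctrl libraries. Its female groups overlapped (log2 fold change -0.18, adjusted p = 0.567).

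In male embryos Smc1b and Rec8 showed no detectable difference between genotypes. Smc1b had 143, 193 and 194 CPM in male CKO against 147, 145, 179 and 227 CPM in male Ctrl libraries, with a log2 fold change of 0.02 (95% interval -0.32 to 0.35, adjusted p = 0.972, edgeR). Rec8 had 8.32, 7.66 and 10.2 CPM in male CKO against 16.7, 3.05, 4.67 and 9.58 CPM in male Ctrl libraries. The male CKO values of Rec8 all lay inside the 5.46-fold range of the Ctrl values. The highest library of that range, Ctrl 1, also had the highest sums of Sertoli (21.9 CPM) and Leydig (10.8 CPM) markers. In the other male Ctrl libraries the Sertoli sums did not follow Rec8, with 5.75 CPM in Ctrl 4 and 8.91 CPM in Ctrl 2. Their Leydig sums ran from 2.43 CPM in Ctrl 2 to 3.9 CPM in Ctrl 3. A link between these markers and Rec8 was not tested. Stag3 had 298, 304 and 234 CPM in male CKO against 413, 304, 391 and 327 CPM in male Ctrl libraries. The highest CKO value lay just below the lowest Ctrl value, and the log2 fold change of -0.36 (95% interval -0.67 to -0.06) did not pass the test (adjusted p = 0.206).

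Across males, 0 of 10 members were called, against 1.20% of all genes called higher and 0.497% called lower. At an unadjusted p under 0.05 the edgeR test counted 3 members, beside 2789 of all 16708 genes, and limma-voom and DESeq2 also called 0 after adjustment. The median log2 fold change of the members was 0.20, against -0.02 over all genes. Male groups separated with CKO higher for 1 member, Syce3, where 8.01% of all genes did so, and with CKO lower for 1 member, Stag3, where 6.97% of all genes did so.

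When the CKO effect was averaged over the sexes with equal weight, 3 of 10 members were called higher and 0 lower, against 6.85% of all genes called higher and 7.87% called lower. Sycp2 rose by 1.00 on the log2 scale (SE 0.23, adjusted p = 0.0112, edgeR), Sycp3 by 0.71 (SE 0.16, adjusted p = 0.0109) and Syce3 by 0.89 (SE 0.22, adjusted p = 0.0157). Syce1 lay at the threshold, with a log2 fold change of 0.42 (SE 0.13, adjusted p = 0.0502), and it was called under 11 of 19 other settings. The values for Sycp1 (0.91, adjusted p = 0.0739), Tex12 (0.50, adjusted p = 0.0812) and Smc1b (0.26, adjusted p = 0.175) did not pass, nor did that of Stag3 (-0.27, adjusted p = 0.117). The median over the members was 0.46, against -0.01 over all genes. All 3 calls were lost without female CKO 1, where the adjusted p was 0.0643 for Sycp2, 0.0691 for Sycp3 and 0.115 for Syce3. Without male CKO 1, 5 members were called, and without male Ctrl 4, 6 were.

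The difference of the CKO effect between females and males was tested for each gene. It was largest for Sycp2, at 1.15 on the log2 scale (SE 0.46, 95% interval 0.17 to 2.13, adjusted p = 0.541, edgeR), followed by Tex12 at 0.85 (SE 0.37, adjusted p = 0.576) and Sycp3 at 0.78 (SE 0.32, adjusted p = 0.551). These 3 members had an unadjusted p under 0.05. After adjustment 0 of 10 members passed, and of all genes tested 0.00% were called with the larger effect in females and 0.00% with the smaller. Over all genes, 1401 had an unadjusted p under 0.05 in this comparison, and DESeq2 called 61 genes, limma-voom 0. The data therefore do not show that the response of any member differs between the sexes, and the interval for Sycp2 reaches 2.13.

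The female CKO libraries were not alike. CKO 1 had the higher value of the pair for all 10 members and the highest value of all 5 female libraries for 8. The excess was 2.11-fold for Sycp3, 2.01-fold for Tex12, 1.88-fold for Syce3 and 1.5-fold for Sycp2, but 1.16-fold for Rec8 and 1.18-fold for Smc1b. Summed over the members, CKO 1 and CKO 2 had 2680 and 2000 CPM, against 1829, 1823 and 1661 CPM in female Ctrl libraries. Both CKO sums exceeded every Ctrl sum. In males the sums were 865, 1034 and 985 CPM in CKO against 978, 819, 976 and 1089 CPM in Ctrl libraries, and the groups overlapped. Male Ctrl 2 was the lowest of the 7 male libraries for 5 members, and male CKO 3 the highest for 5.

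**Figure D3:**
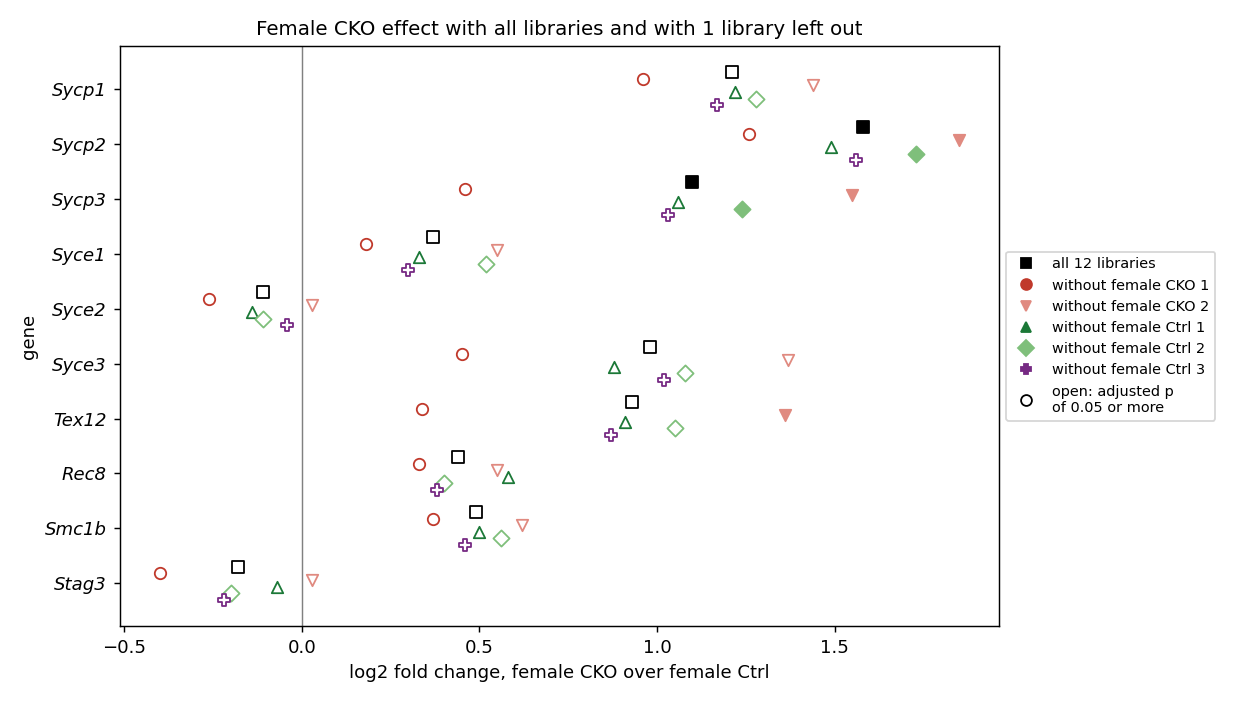
Points are log2 fold changes of female CKO over female Ctrl for each gene, with all 12 libraries (square) and with each of the 5 female libraries left out in turn; filled points have an adjusted p under 0.05. Leaving out CKO 1 gives the smallest value for every gene, 0.46 for Sycp3 against 1.10 with all libraries, and leaving out CKO 2 the largest for all but Rec8. Either omission leaves 1 CKO embryo.

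Levels differed between the sexes for most members. Among Ctrl embryos 9 of 10 members were called higher in females and 0 lower, against 20.1% of all genes called higher and 19.4% called lower. Groups did not overlap, with females higher, for these 9 members, where 22.3% of all genes separated so. Rec8 had the widest gap, with means of 127 ± 19.5 CPM (SD, n = 3) in female Ctrl and 8.49 ± 6.12 CPM (SD, n = 4) in male Ctrl embryos, a log2 fold change of 3.89 (SE 0.43, adjusted p = 3.24e-05, edgeR). Next came Syce3 at 1.93 (adjusted p = 0.000155), Sycp3 at 1.44 (0.000122), Smc1b at 1.32 (2.59e-05) and Sycp1 at 1.30 (0.0238). Tex12 (0.73, 0.0243), Syce1 (0.64, 0.00899), Syce2 (0.59, 0.0034) and Stag3 (0.41, 0.0302) differed less. The median over the members was 1.01, against 0.00 over all genes. Without female Ctrl 2, 5 members were called, as Sycp1 (adjusted p = 0.0654), Syce1 (0.0615), Tex12 (0.101) and Stag3 (0.0555) no longer passed. The Sycp1 call was also lost without female Ctrl 1 (0.0575) or male Ctrl 3 (0.0538), the Tex12 call without female Ctrl 1 (0.055), and the Stag3 call without female Ctrl 1 (0.144), male Ctrl 2 (0.0659) or male Ctrl 4 (0.0735). With no filter on low counts Sycp1 (0.0826) and Tex12 (0.0804) did not pass.

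Sycp2 was the exception among Ctrl embryos. Its means were 19.3 ± 3.2 CPM (SD, n = 3) in female Ctrl and 20.6 ± 8.74 CPM (SD, n = 4) in male Ctrl embryos, and the log2 fold change was -0.10 (SE 0.30, 95% interval -0.73 to 0.54, adjusted p = 0.823, edgeR). In CKO embryos its means were 57.6 ± 16.2 CPM (SD, n = 2) in females and 27.7 ± 6.28 CPM (SD, n = 3) in males, with a log2 fold change of 1.05 (SE 0.34, adjusted p = 0.0269). The change of the sex difference with genotype is the same quantity as the difference of the CKO effects given above, and it did not pass the test.

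Among CKO embryos all 10 members were called higher in females, against 19.4% of all genes called higher and 19.0% called lower, and all 10 separated without overlap, where 33.4% of all genes did so with females higher. Rec8 averaged 173 ± 18 CPM (SD, n = 2) in female CKO and 8.74 ± 1.33 CPM (SD, n = 3) in male CKO embryos, a log2 fold change of 4.30 (SE 0.51, adjusted p = 6.95e-05, edgeR). Sycp3 followed at 2.22 (adjusted p = 2.5e-05), then Syce3 at 2.10 (0.00029), Sycp1 at 1.91 (0.0085), Smc1b at 1.79 (1.52e-05) and Tex12 at 1.58 (0.000675). The smallest gaps were those of Stag3 (0.60, 0.0115), Syce1 (0.54, 0.0469) and Syce2 (0.54, 0.0173). The median was 1.69, against 0.03 over all genes. Without female CKO 1, 5 members were called, and Sycp1 (adjusted p = 0.0728), Sycp2 (0.241), Syce1 (0.337), Syce2 (0.179) and Stag3 (0.181) no longer passed. The Sycp2 call was also lost without male CKO 1 (0.0862) or male CKO 2 (0.0747), and the Syce1 call without male CKO 1 (0.122), male CKO 2 (0.0803) or male CKO 3 (0.0522), and both with no filter (0.0897 for Sycp2 and 0.0602 for Syce1).

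**Figure D4:**
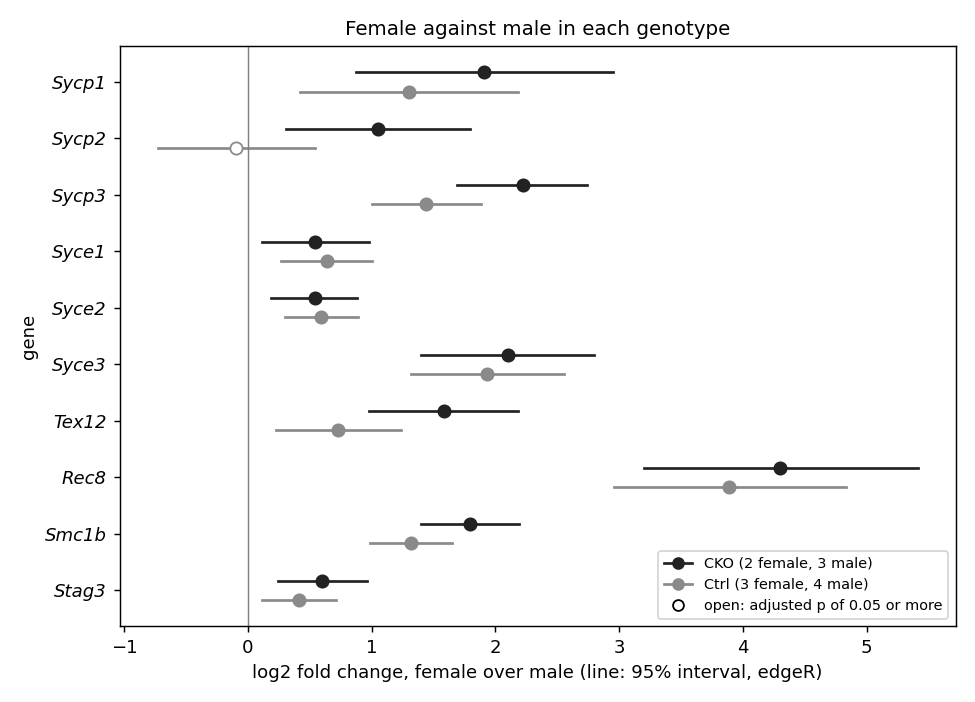
Points are log2 fold changes of female over male from the edgeR fit, with 95% intervals as lines, within CKO embryos (2 female, 3 male; black) and within Ctrl embryos (3 female, 4 male; grey); the open point has an adjusted p above 0.05. Rec8 lies farthest right in both genotypes (4.30 and 3.89), and Sycp2 among Ctrl embryos (-0.10) is the only open point.

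Levels were compared between genes as mean CPM per kilobase of exon, which corrects for gene length. The Sycp3 level was divided by its whole exon length, and its level and rank are too low if reads in the 52.2% shared with Chpt1 were not counted for it. In female CKO embryos Smc1b (151), Syce2 (134), Sycp3 (126), Syce1 (119), Tex12 (118), Sycp1 (99.8), Stag3 (73.7) and Rec8 (58.8 CPM per kilobase) formed a run in which each gene overlapped the next across libraries. Syce3 (12.1) and Sycp2 (9.65) were lowest and lay apart from this run. In female Ctrl embryos Syce2 led at 145, followed by Smc1b at 107, Syce1 at 91.9 and Stag3 at 83.3 CPM per kilobase, and Sycp3 (58.7) and Sycp1 (43.1) held ranks 6 and 8. Syce2 did not overlap Smc1b there, and Stag3 did not overlap Tex12 (61.9). In male CKO embryos Syce2 (92.1) and Syce1 (81.4) led, and Sycp2 (4.65), Rec8 (2.98) and Syce3 (2.81 CPM per kilobase) were lowest. The male Ctrl order was headed by Syce2 (95.8), Stag3 (62.6) and Syce1 (59.1), with Sycp2 (3.46), Rec8 (2.89) and Syce3 (1.59) at the end. The central element gene Syce2 was thus among the most abundant and Syce3 and Sycp2 among the least abundant members in all 4 groups.

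Cohesin rings can be built from alternative subunits. The share of Rec8, Smc1b or Stag3 in its slot was computed per library from CPM per kilobase. Rad21l, also a meiotic kleisin, was counted with Rad21 and not with Rec8. This measure was chosen with the values in view, and it is a description. It depends on the gene lengths, which are those of all exons, and the shares were not computed with the longest transcript. That length is 2184 in place of 2935 bases for Rec8 and 4669 in place of 5733 bases for Stag3. Rec8 made up 62.1% and 52.8% of the kleisin transcripts (Rec8, Rad21 and Rad21l) in female CKO against 53.1%, 41.8% and 40.2% in female Ctrl libraries. The groups overlapped, since CKO 2 lay just below Ctrl 1. In males the share was 4.66%, 4.71% and 5.74% in CKO against 10%, 1.57%, 2.43% and 5.36% in Ctrl libraries. Smc1b made up most of the SMC1 transcripts (Smc1b and Smc1a) in each library, at 87.6% and 81% in female CKO against 80.3% to 85.1% in female Ctrl, and 64.2% to 71.1% in male CKO against 60.6% to 67.8% in male Ctrl libraries. Stag3 made up 77.9% and 71.9% of the STAG transcripts (Stag3, Stag1 and Stag2) in female CKO against 73.2% to 77.6% in female Ctrl, and 61.2% to 67.9% in male CKO against 67.3% to 72.1% in male Ctrl libraries. Per kilobase of exon, Smc1b and Stag3 were thus the larger share of their slots in male libraries, and Rec8 the smaller share of its slot. For Stag3 this rests on the division by length. Without it, mean Stag3 was 279 CPM in male CKO and 359 CPM in male Ctrl embryos. Stag1 and Stag2 had means of 224 and 59.8 CPM in male CKO and 239 and 54.6 CPM in male Ctrl embryos.

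**Figure D5:**
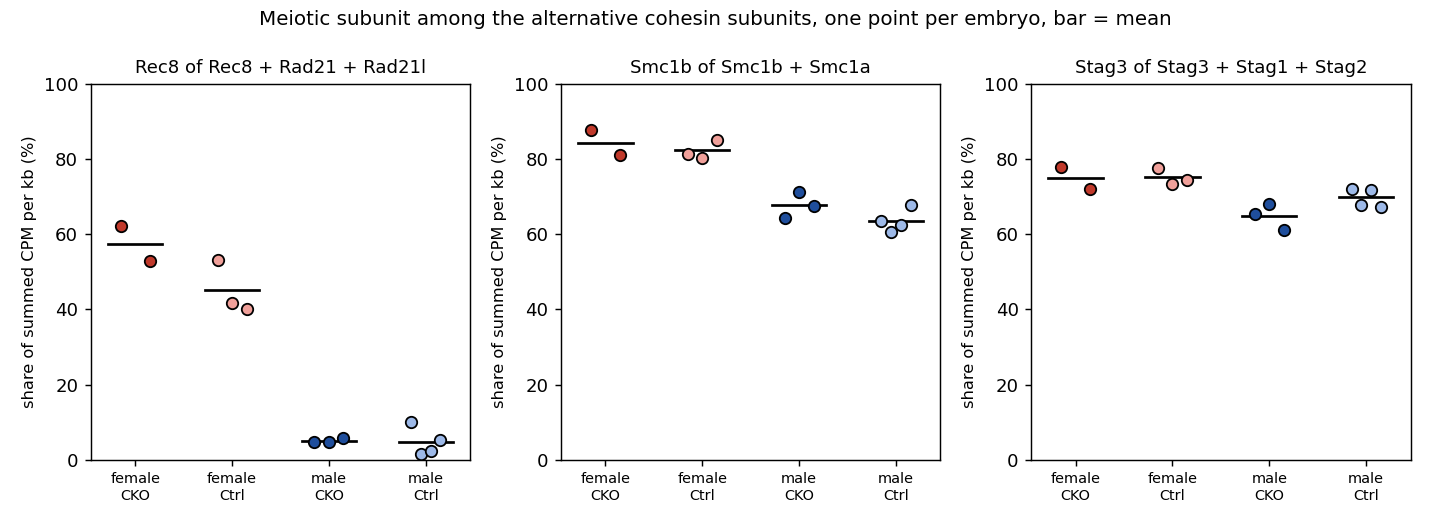
Each panel gives the share (%) of Rec8, Smc1b or Stag3 in the summed CPM per kilobase of its slot, with 1 point per embryo and a bar at the mean of each of the 4 groups. The Rec8 share averages 57.4% in female CKO and 45% in female Ctrl but 5.04% in male CKO and 4.84% in male Ctrl embryos, whereas the Smc1b share is at least 60.6% and the Stag3 share at least 61.2% in every library.

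Other genes of the meiotic axis were tested in the same fit. Of 10 partner genes of the axis and the synaptonemal complex, 1 was called higher and 0 lower in females, 0 in males, and 3 higher and 0 lower on average over the sexes. Of all genes tested, 3.01% were called higher in females, 1.20% in males and 6.85% on average. The median log2 fold change of the list was 0.38 in females and -0.01 in males, against 0.00 and -0.02 over all genes, and 0.14 on average. Ccdc36, which encodes the axis protein IHO1 needed for meiotic DNA breaks, had 38.2 and 18.8 CPM in female CKO against 13.6, 18 and 8.27 CPM in female Ctrl libraries. It rose by 1.10 on the log2 scale in females (adjusted p = 0.0458, edgeR) and by 0.82 on average (adjusted p = 0.0173). In females it did not pass without CKO 1 (0.483), Ctrl 1 (0.101) or Ctrl 3 (0.13) or with the female libraries alone (0.0813), nor on average without female CKO 1 (0.134). Mei4, a partner of IHO1 in forming these breaks, rose by 0.36 on average (adjusted p = 0.035), and was called under 12 of 19 other settings. Its call was lost without female CKO 1 or 2, female Ctrl 1 or 3, male CKO 2 or 3, or male Ctrl 4 (adjusted p 0.0564 to 0.116). Rad21l, another meiotic kleisin, was counted mainly in the female CKO libraries, at 8.43 and 1.47 CPM in female CKO against 0.399, 0.688 and 0 CPM in female Ctrl, and at 0, 0.208 and 0.206 CPM in male CKO against 0 in all 4 male Ctrl libraries. Its female CKO libraries, with 288 and 49 counts, lay above all female Ctrl libraries, and the female log2 fold change of 3.74 (SE 1.10, adjusted p = 0.0674, edgeR) did not pass the test. It was called higher on average (adjusted p = 0.0324), and the call was lost without female CKO 1 (0.116), female Ctrl 1 (0.0586), male CKO 2 (0.0909) or male CKO 3 (0.102), with no filter (0.138) or with limma-voom (0.0541). No male or average fold is given for it, since the male Ctrl libraries had no count.

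Genes that tie meiotic telomeres to the nuclear envelope were listed as a further group of 7. None was called in CKO embryos of either sex alone. Of all genes, 3.01% were called higher and 4.16% lower in females, and 1.20% and 0.497% in males. On average 2 of the 7 were called higher and 1 lower, where 6.85% of all genes were called higher and 7.87% lower. The median log2 fold change of the list was 1.05 in females, the largest of the 4 lists described here, 0.20 in males and 0.62 on average. Majin, a telomere attachment protein of the inner nuclear membrane, had 17.7 and 7.91 CPM in female CKO against 5.37, 6.38 and 2.61 CPM in female Ctrl libraries and rose by 1.31 on average (adjusted p = 0.0258, edgeR). Spdya, an activator of CDK2 at meiotic telomeres, had 26.8 and 13 CPM in female CKO against 5.16, 10.1 and 4.87 CPM in female Ctrl libraries and rose by 1.33 on average (adjusted p = 0.019). Sun1, a nuclear envelope protein that is also expressed outside meiosis, fell by 0.25 on the log2 scale on average (adjusted p = 0.0471). The Majin call was lost without female CKO 1 (adjusted p = 0.149), female Ctrl 3 (0.0554) or male CKO 1 (0.0646), or with limma-voom (0.0704), and the Spdya call without female CKO 1 (0.113) or male CKO 3 (0.0586). Sun1 was called under 4 of 19 other settings, and of the libraries left out in turn only the omission of male CKO 1 or 2 kept its call (adjusted p 0.0562 to 0.17 without the others).

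Cohesin genes shared with mitosis were set beside the meiotic subunits. Of 15 such genes, 0 were called in female or male CKO embryos. In females 3.01% of all genes were called higher and 4.16% lower, and in males 1.20% and 0.497%. On average 0 of the 15 were called higher and 1 lower, a share near the 7.87% of all genes called lower. That gene was Pds5a, a regulator of cohesin release, which fell by 0.33 on the log2 scale (adjusted p = 0.0401, edgeR) and was called under 10 of 19 other settings. The call was lost without female CKO 2, any of the 3 female Ctrl libraries, male CKO 2 or 3, or male Ctrl 3 (0.0712 to 0.192). The median of the list was -0.15 in females, -0.10 in males and -0.16 on average.

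Regulators of meiotic entry were counted in the same way. Of 6 tested, 0 were called in CKO embryos of either sex alone. The shares of all genes called higher and lower were 3.01% and 4.16% in females and 1.20% and 0.497% in males. On average 2 of the 6 were called higher, where 6.85% of all genes were. The median log2 fold change of the 6 genes was 0.20 in females, 0.09 in males and 0.14 on average. Stra8, the retinoic acid target that marks entry into meiosis, had 580 and 300 CPM in female CKO against 296, 276 and 212 CPM in female Ctrl libraries. Its male values were far lower, at 4.67, 9.74 and 5.02 CPM in CKO against 1.81, 1.07, 2.22 and 3.56 CPM in Ctrl libraries. CKO libraries exceeded all Ctrl libraries of the same sex, and the average log2 fold change was 1.16 (adjusted p = 0.0122, edgeR), which did not pass without female CKO 1 (0.89, adjusted p = 0.0604) or with no filter on low counts (0.0553). Meioc, an RNA regulator that sustains meiotic prophase, had 534 and 308 CPM in female CKO against 227, 254 and 188 CPM in female Ctrl libraries, and 17.1, 32.7 and 33.5 CPM in male CKO against 14.7, 6.73, 15.4 and 19 CPM in male Ctrl libraries. It rose by 0.95 on average (adjusted p = 0.0218), a call that was lost without female CKO 1 (0.116), female Ctrl 3 (0.0554) or male CKO 3 (0.0553), or with no filter (0.0863). The Stra8 and Meioc values of female CKO 1 stood above those of CKO 2, as those of the 10 members did.

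The genes whose group means followed the mean profile of the 10 members most closely were found among 10455 other genes. A small constant was added to each CPM before the logarithm, which narrows the profiles of genes with low CPM. A profile was the 4 group means of these log2 values minus their own mean. The mean profile of the members was 1.03 and 0.39 in females (CKO, Ctrl) and -0.58 and -0.84 in males (CKO, Ctrl). The root mean square difference from it was 0.0379 for Kcnab3, 0.0409 for Fbxl21, 0.0411 for Rasa4, 0.0497 for Hdac11 and 0.051 for Garnl3, over 4 group means. Garnl3 was the most highly counted of these 5, at 49.7, 35.4, 17 and 14.6 CPM in the same order of groups, while the other 4 ranged from 1.18 to 8.04 CPM.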

How the data were processed

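Per the labels' protocols, cDNA of sorted germ cells was amplified by SMART-seq V4 and indexed with the NEBNext Ultra II kit, a chemistry that does not mark the strand. The authors deposited 1 table of read counts per gene for the 12 libraries, which were used as deposited. The tools were TopHat2 2.0.11, Trimmomatic 0.33, CASAVA 1.8.4 and featureCounts and the builds mm9 and NCBIM37, per the submitters' processing notes. How reads matching several places were counted is not given in the sources used here. Symbols matched 32919 of 37991 identifiers (99.5% of the counts). Exon lengths and overlaps came from GENCODE M21 and promoters from RefSeq, both on GRCm38, so no coordinates are tied to the counts.

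Genes were kept with filterByExpr (minimum count 10, minimum total 15). An edgeR 4.0.16 quasi-likelihood model (R 4.3.3) with TMM scaling, robust dispersion and 1 coefficient per group had 8 residual degrees of freedom. Benjamini-Hochberg adjustment ran over 16708 genes, and an adjusted p under 0.05 made a call. Standard errors and 95% intervals come from the F statistic. CPM use TMM-scaled library sizes, where 1 CPM is 24.2 to 34.2 counts, and means are given with the SD over embryos. All replicate pairs differed by more than counting noise (chi-square per gene 19.5 to 78.3). Each library is 1 embryo, but litters are not given, so p-values measure the spread between these embryos. The scripts were tested on simulated data.

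The alternatives were other size factors, other filters on low counts, fits of 1 sex or genotype alone, a block for the replicate number, limma-voom (limma 3.58.1), DESeq2 1.42.0 and leaving out each library. With a female CKO library left out, 1 embryo remained in that group, and the spread was estimated from the other groups. The members, the lists of other genes and the rule for named genes (the members, Ezh2, Stra8, list members called in a CKO comparison, and the 5 nearest profiles) were chosen with earlier results of these data known. Of the listed genes, Meiosin was not matched and is not analysed here. Six6os1 was matched as 4930447C04Rik and Kash5 as Ccdc155.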

Additional observations from a re-analysis of the deposited data

Results flagged for a closer look

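The 4 male Ctrl embryos were the 1 group large enough to test for a sample far from the others. In 10 tests, 1 for each gene, 0 embryos were set apart by Dixon's criterion, also in Rec8 and Sycp1, whose male Ctrl values spread 5.46-fold and 3.49-fold.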

How the results depend on the processing

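The numbers of members called moved with the test and the libraries more than with the scaling. In females the 2 calls became 1 with no filter on low counts (Sycp3; Sycp2 had an adjusted p of 0.0519), 4 with the female libraries alone, 5 with limma-voom, 4 with DESeq2 and 0 to 3 with each library left out. The same settings gave 2035 (limma-voom) and 1989 (DESeq2) called genes in all, against 1198, and 317 to 691 with a library left out. In males 0 members were called under all settings, while 284 called genes became 63 with the male libraries alone, 1098 with limma-voom, 990 with DESeq2 and 36 to 502 with a library left out. Averaged over the sexes, the 3 members became 5 with limma-voom, 6 with DESeq2 and 0 to 6 with a library left out, and 2460 called genes ranged from 1363 to 2803 with a library left out. The difference between the sexes gave 0 members throughout and, over all genes, 2 calls with no filter, 61 with DESeq2 and 0 to 3 with a library left out. With a library left out, the sex comparisons gave 5 to 9 members in Ctrl embryos and 5 to 10 in CKO embryos, and 4063 to 5602 called genes in CKO embryos. The cause of these shifts was not tested.

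Deviations from the group means correlated weakly between same-numbered CKO and Ctrl libraries. The correlations were 0.108 and -0.0221 in females and -0.024, 0.029 and 0.00648 in males. The numbers are those of the sample titles, and with 2 female CKO libraries the deviations of 1 mirror those of the other. These values therefore cannot decide whether embryos shared a litter or were processed together. The replicate block gave 1 member in females (Sycp2; Sycp3 had an adjusted p of 0.0515), 6 on average (1 of them, Stag3, lower) and 105 called genes in males. Under the block the adjusted p was 0.0946 for Ccdc36 in females and, on average, 0.0755 for Rad21l and 0.0574 for Majin.

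Scaling by library size alone put the median of all genes at 0.11 in the female CKO comparison (0.00 with TMM) and, between the sexes, at 0.21 in CKO (0.03) and 0.10 in Ctrl embryos (0.00). It changed the split of called genes to 652 higher and 357 lower in females (503 and 695 with TMM), 1505 and 782 on average (1145 and 1315), 4062 and 2592 between the sexes in Ctrl (3358 and 3246) and 4336 and 2212 in CKO embryos (3239 and 3172). It called 3 members in females, with Tex12 added. Signs turned only for values that passed neither before nor after, the largest being the difference between the sexes for Rec8 (0.41). Syce2 became 0.00 in females with library size alone, 0.02 in males with the replicate block, and 0.02 (library size) and 0.00 (a minimum of 5 CPM in 2 libraries) in the difference between the sexes. The difference for Rec8 became 0.00 with limma-voom, and Sycp2 between the sexes in Ctrl embryos became 0.23 with the replicate block. With a library left out, female values ran from -0.26 to 0.03 for Syce2 and -0.40 to 0.03 for Stag3, male values from -0.18 to 0.01 for Syce2, -0.06 to 0.25 for Tex12, -0.24 to 0.60 for Rec8 and -0.06 to 0.17 for Smc1b, and Sycp2 between the sexes in Ctrl embryos from -0.33 to 0.17. The difference ran from -0.28 to 0.09 for Syce1, -0.20 to 0.09 for Syce2, -0.36 to 0.56 for Syce3, -0.15 to 0.68 for Rec8 and -0.03 to 0.39 for Stag3. With the longest transcript as length, 6 of 10 members kept their rank per kilobase in female Ctrl embryos.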

Other observations

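Genes that work with the 10 members also differed between the sexes. Of the 10 axis and synaptonemal complex partners, 8 were called higher and 1 lower in females among CKO embryos, and 7 higher and 1 lower among Ctrl embryos, beside backgrounds of 19.4% and 19.0% in CKO and of 20.1% and 19.4% in Ctrl embryos. Their median log2 fold change of female over male was 0.80 in CKO and 0.51 in Ctrl embryos. Of the 7 telomere attachment genes, 5 were higher and 2 lower in females among CKO embryos, and 5 higher and 0 lower among Ctrl embryos, with medians of 2.86 and 1.56. All 6 regulators of meiotic entry that were tested were higher in females in both genotypes. Of the 15 cohesin genes shared with mitosis, 2 were higher and 5 lower in females among CKO embryos, and 1 higher and 3 lower among Ctrl embryos, with medians of -0.04 and -0.16.

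RefSeq lists a further start for Syce2 and for Syce3. The window at the second Syce2 start held an E-box at position -88, E2F6 sites at -34 and 29 and the STRA8 core at -39, whose last base is also the first of the E2F6 site at -34, where the window at the first start held an E2F6 site at -115 and neither an E-box nor the STRA8 core. Neither Syce3 window held any of the motifs searched.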
